A study of Mus musculus with 10 samples.

Results

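Voltage-gated sodium, calcium and potassium channels, the other potassium channels and the Hcn pacemaker channels are the membrane proteins that shape the electrical signal of a cell. The genes described here are the protein-coding mouse genes whose symbols begin with Scn and a digit, Kcn and a letter, Cacna, Cacnb, Cacng, or Hcn and a digit. Antisense and non-coding names were left out, 5 in all. The rule used symbols alone and gave 138 of the 55357 gene identifiers in the count tables. They comprise 94 potassium channel genes, 26 calcium channel genes, 14 sodium channel genes and 4 Hcn genes. RNA was measured in hearts and in cultured macrophages of mice on a C57BL/6 background. All 6 hearts came from Cd163-/- males, which lack the macrophage scavenger receptor CD163 throughout the body, and the groups were IL-10 (recombinant interleukin-10, a cytokine that damps inflammation; n = 3) and saline (n = 3). The IL-10 was injected under the skin at 50 µg/kg/day between day 0 and day 27. The design text describes transverse aortic constriction, which narrows the aorta and overloads the left ventricle, at 8 weeks of age. Surgery is not given in the labels of individual hearts, and no wild-type or sham heart was analysed here. The 4 macrophage libraries were Cd163-/- (n = 2) and wild type (n = 2). These cells were taken from the peritoneal cavity 3 days after the irritant thioglycolate, selected by adherence, and treated in both genotypes with the glucocorticoid dexamethasone at 100 nM for 48 h. Whether replicates were separate animals or cultures is not stated in the sources used here. The p-values therefore reflect spread among libraries that may be purely technical.

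In a heart muscle cell sodium channels give the upstroke of the action potential, and the L-type calcium channel encoded by Cacna1c lets in the calcium that triggers contraction. Potassium channels of several families then return the membrane to rest: the Kcnd and Kcnip2 transient outward current, the delayed currents of Kcna5, Kcnh2 and Kcnq1, and the inward rectifiers of the Kcnj family. Many pore-forming alpha subunits are joined by auxiliary subunits that set how much current they carry and how fast they open and close. Many potassium channel transcripts are known to decline in overloaded rodent hearts. Macrophages are not excitable in this way, but potassium channels set their resting potential.

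Total counts were 13.5 to 14.9 M per heart and 16.7 to 18.6 M per macrophage library, where M stands for mega. Levels are counts per M counts of the scaled library (CPM), and 3 counts correspond to 0.192 to 0.22 CPM in a heart and to 0.149 to 0.191 CPM in a macrophage library. Levels of different genes are compared only as CPM per kb of merged exon. Cd163 itself had 0.448 and 0.778 CPM in Cd163-/- macrophages, against 20.9 and 13.0 CPM in wild-type macrophages. In the hearts, which are all Cd163-/-, it had 2.55, 3.16 and 2.39 CPM under IL-10 and 3.29, 3.43 and 3.65 CPM under saline. Of the 12 heart muscle cell markers, all of which passed the filter on low counts, the summed level was 43700, 45300 and 39600 CPM in IL-10 hearts and 35200, 41500 and 34500 CPM in saline hearts. Those ranges overlapped, 2 of the markers were called higher in IL-10 hearts, and their median log2 fold change was 0.196. In bulk RNA, a smaller number of cells of a type and less RNA per cell cannot be told apart.

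In IL-10 hearts, transcripts of 13 channel genes were higher and those of 3 were lower than in saline hearts, at an adjusted p under 0.05. The higher set held 10 potassium channel genes, a sodium channel alpha subunit (Scn4a), a sodium channel beta subunit (Scn4b) and a pacemaker channel (Hcn2). These were 25.0% of the 40 potassium channel genes tested, 25.0% of the 8 sodium channel genes and 33.3% of the 3 Hcn genes. Over all tested genes, 6.86% were called higher. Scn4b, at 1.96 on the log2 scale, and Kcnc1, at 2.37, had the largest fold changes of the 13, and the other 11 lay between 0.39 and 1.50. Kcnc1 passed the filter on low counts only through IL-10 hearts, so it had to be higher there. The lower genes were Kcnj15, Kcnj14 and Kcnd1, all at a few CPM. Calcium channel genes, Cacna1c among them, did not pass the test (0 of 12 tested, beside 13.6% of all tested genes called in either direction).

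Of the 138 genes, 63 passed the filter on low counts in hearts and were tested. Those called higher were 20.6% of the 63, where 6.86% of all 13718 tested genes were called higher. Those called lower were 4.76% of the 63, where 6.70% of all tested genes were called lower. The median log2 fold change was 0.164 over the 63 and -0.00787 over all tested genes, with 47 of the 63 above 0 and 16 below. A gene that passed the filter only through the group where it was high had to differ, so these shares describe the genes that passed and not the whole family. Among the called genes, Kcnc1 passed only through IL-10 hearts and Kcnd1 only through saline hearts. At an unadjusted p under 0.05 there were 24 of the 63, 21 higher and 3 lower, beside 28.3% of all tested genes. In 18 genes every IL-10 heart lay above every saline heart and in 5 every IL-10 heart lay below, together 36.5% of the 63. Of all tested genes, 15.7% lay above in this way and 15.8% below, together 31.6%. Summed over all 138, channel transcripts reached 1390 to 1630 CPM in IL-10 hearts and 1160 to 1230 CPM in saline hearts. IL-10 heart 1 was the highest library in 10 of the 13 genes called higher, and without it 11 channel genes were called higher. Scaling by total counts only, under which 35.6% of the calls over all genes were higher ones in place of 50.6%, left 10 channel genes higher and 3 lower; upper-quartile scaling (39.0%) left 12 and 3. Of the 16 called genes, 8 stayed past the threshold whichever heart was left out: Scn4b, Kcna5, Kcnj11, Kcnj3, Kcnc1, Kcnip2, Kcna7 and Kcnh2.

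**Figure D1:**
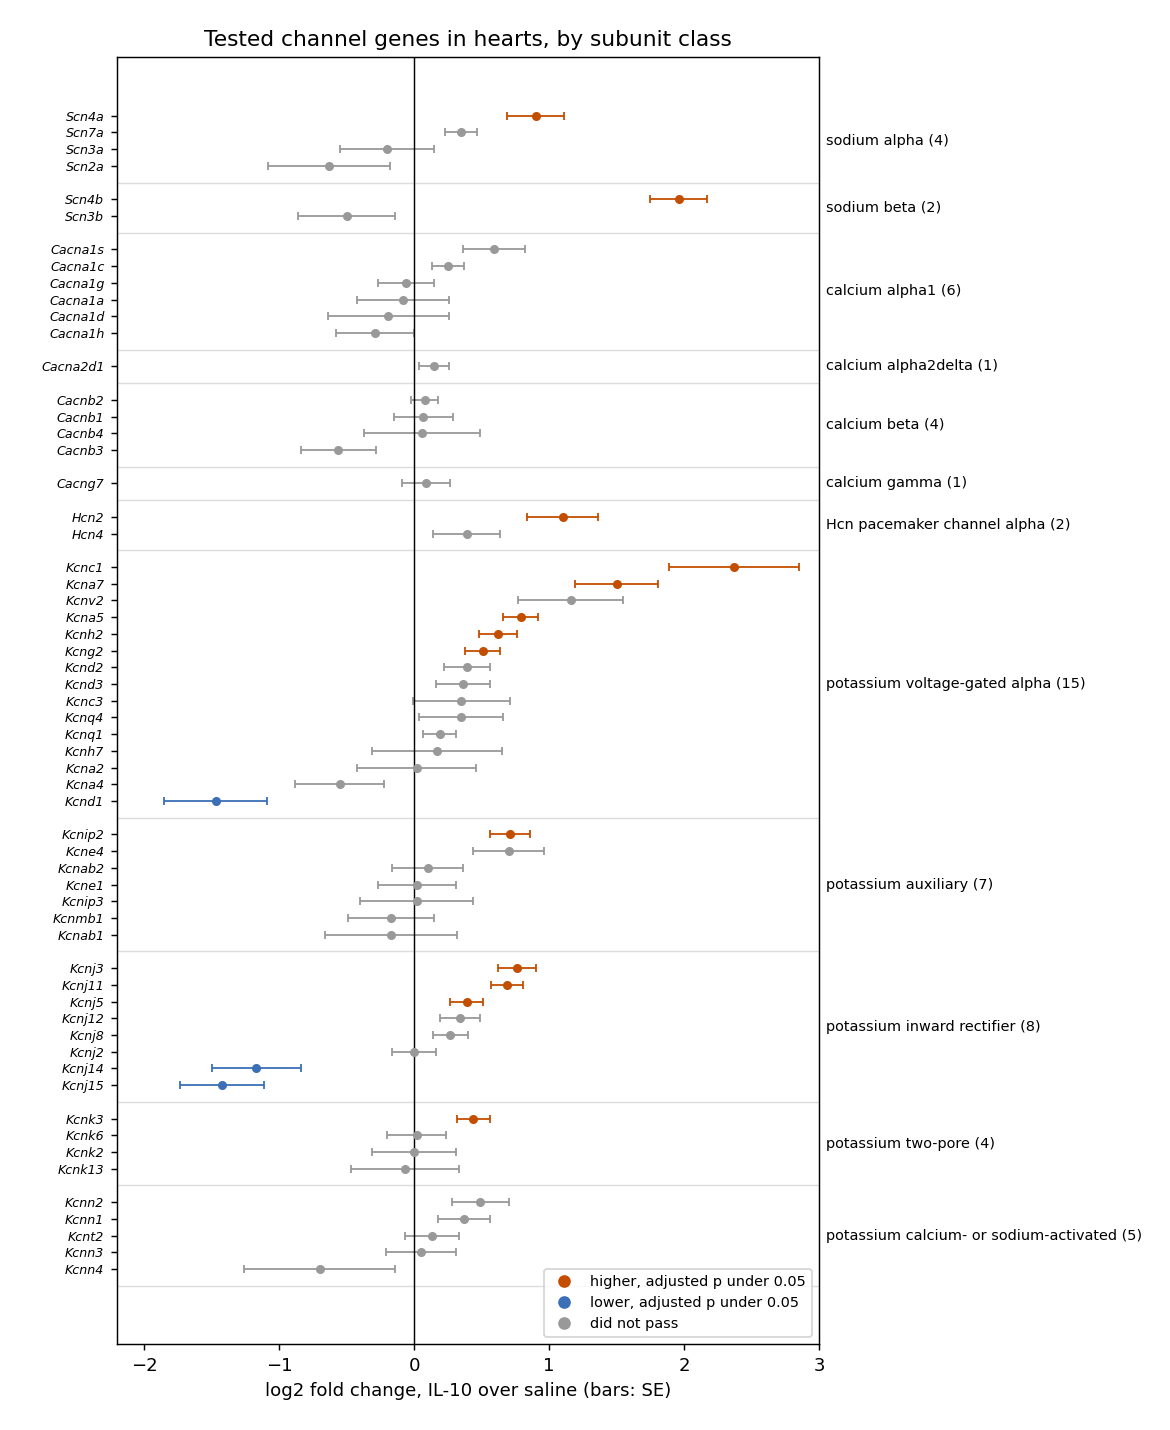
Log2 fold change (IL-10 over saline, x axis; bars are standard errors) of 59 of the 63 channel genes tested in hearts, grouped by subunit class with the number drawn in each. Orange points (13) passed the test higher in IL-10 hearts and blue points (3) lower; the calcium channel classes hold grey points only.

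The 5′ ends of 4 of these 8 genes are shown because the heart results turn on them: the sodium channel beta subunit Scn4b, the transient outward auxiliary Kcnip2, the delayed rectifier Kcna5 and the inward rectifier Kcnj3. Each sequence runs 5′ to 3′ on the gene's strand, from 250 bases before to 50 bases after the annotated start (RefSeq, GRCm38.p6). The regions are chr9:45138374-45138673 on the plus strand, chr19:45816014-45816313 on the minus strand, chr6:126535506-126535805 on the minus strand and chr2:55435720-55436019 on the plus strand, in the order given. Gene spans elsewhere in the text are those of GENCODE, whose 5′ ends differ from the RefSeq starts: the RefSeq start lies 229 bases downstream of the GENCODE end for Scn4b, 143 bases upstream for Kcna5 and 2 bases upstream for Kcnip2, and is the same for Kcnj3. Capitals mark CCACCC or its reverse complement GGGTGG, letters of the motif bound by Krüppel-like factors. They also mark AGAACA or its reverse complement TGTTCT, the half-site of steroid receptors.
Scn4b: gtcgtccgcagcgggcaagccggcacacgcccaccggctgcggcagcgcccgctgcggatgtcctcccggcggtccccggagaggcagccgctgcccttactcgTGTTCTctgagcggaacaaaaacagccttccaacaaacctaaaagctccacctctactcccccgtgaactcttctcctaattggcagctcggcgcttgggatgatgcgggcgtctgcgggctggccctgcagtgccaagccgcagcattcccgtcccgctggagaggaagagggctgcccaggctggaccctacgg
Kcnip2: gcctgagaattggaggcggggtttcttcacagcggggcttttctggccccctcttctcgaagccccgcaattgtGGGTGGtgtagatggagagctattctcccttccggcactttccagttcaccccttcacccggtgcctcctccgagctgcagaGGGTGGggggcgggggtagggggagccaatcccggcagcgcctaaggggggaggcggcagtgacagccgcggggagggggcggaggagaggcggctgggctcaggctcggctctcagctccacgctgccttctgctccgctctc
Kcna5: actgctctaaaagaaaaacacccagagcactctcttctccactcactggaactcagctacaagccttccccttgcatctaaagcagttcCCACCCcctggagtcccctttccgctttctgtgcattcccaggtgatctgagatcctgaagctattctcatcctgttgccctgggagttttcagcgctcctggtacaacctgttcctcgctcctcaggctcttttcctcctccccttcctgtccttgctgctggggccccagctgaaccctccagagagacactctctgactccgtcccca
Kcnj3: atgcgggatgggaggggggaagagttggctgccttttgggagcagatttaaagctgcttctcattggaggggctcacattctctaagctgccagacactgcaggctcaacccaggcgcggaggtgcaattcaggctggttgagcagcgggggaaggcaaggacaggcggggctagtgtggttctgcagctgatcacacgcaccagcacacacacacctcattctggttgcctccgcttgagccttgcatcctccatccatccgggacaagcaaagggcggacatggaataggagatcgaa
Kcnip2 holds the CCACCC letters at 2 places and Kcna5 at 1, Scn4b holds the AGAACA letters at 1 place, and Kcnj3 holds neither. Of the 138 channel genes, 101 had a promoter in the RefSeq table, as did 10 of the 13 called higher. On either strand, CCACCC lay in 7 of those 10 and in 61 of the 101, and in 31.5% of all 32851 promoters of that length. AGAACA lay in 2 of the 10 and in 19 of the 101, and in 19.0% of all promoters. The E-box letters CACGTG lay in 0 of the 10 and in 6 of the 101, and in 7.15% of all promoters. A channel gene counted once if any of its promoters held the letters, whereas the share of all promoters counts each promoter singly. The counts and the shares are therefore unlike measures, and the content of G and C bases was not matched. The matches of the different motifs do not overlap in the 4 sequences shown, and a match of letters is a description, not a site.

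The most marked change of a sodium channel gene was that of Scn4b (chromosome 9, 45138395 to 45154152, GRCm38), a single-pass beta subunit that associates with the pore and shifts its gating. It had 28.4, 26.5 and 20.7 CPM in IL-10 hearts, against 3.95, 8.82 and 6.60 CPM in saline hearts. Every IL-10 heart stood more than 10 CPM above the highest saline heart. Its log2 fold change was 1.96 (SE 0.21), and edgeR's quasi-likelihood test, used for all adjusted p-values here, gave an adjusted p = 3.63e-05. The fold change ran from 1.71 to 2.24 when single hearts were left out. Scn4a, the pore-forming subunit best known from skeletal muscle, had 10.9, 10.3 and 7.87 CPM in IL-10 hearts, against 3.81, 5.91 and 5.83 CPM in saline hearts. The groups did not overlap, and the log2 fold change was 0.90 (SE 0.21, adjusted p = 0.00917). Without IL-10 heart 2 the adjusted p of Scn4a was 0.0503. The skeletal muscle markers Myh1, Myh2, Myh4 and Tnnc2 had no count in any heart; of 12 such markers 4 passed the filter, none was called higher and 1 was called lower. Their summed level was 1050 to 1340 CPM in IL-10 hearts and 934 to 1050 CPM in saline hearts, which includes Ckm, a gene that heart muscle expresses as well.

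Scn7a encodes a sodium-sensing relative of the voltage-gated sodium channels. It averaged 42.0 ± 5.49 CPM in IL-10 hearts and 33.0 ± 2.83 CPM in saline hearts (SD, n = 3 each; log2 fold change 0.35, adjusted p = 0.07), and it passed only when saline heart 2 was left out (adjusted p = 0.0489). Scn3b, another beta subunit, had 1.40 ± 0.503 CPM in IL-10 hearts and 1.98 ± 0.308 CPM in saline hearts (adjusted p = 0.395). Scn2b and Scn10a did not pass the filter, with at most 9 counts in any heart.

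No calcium channel gene passed in hearts. By edgeR's quasi-likelihood test 0 of 12 tested genes were called in either direction, beside 13.6% of all tested genes. With so few genes, 0 calls do not set the calcium channel genes apart from that share. Of the 12, 1 (Cacna1s) had an unadjusted p under 0.05, beside 28.3% of all tested genes, and DESeq2 and limma-voom also called 0. Cacna1c, the pore of the L-type channel, had 139, 108 and 108 CPM in IL-10 hearts, against 93.7, 110 and 95.1 CPM in saline hearts. The groups overlapped, with IL-10 heart 1 the highest library, and the log2 fold change was 0.25 (SE 0.12, adjusted p = 0.201). Cacna2d1, the extracellular subunit that brings the channel to the surface, averaged 154 ± 18.9 CPM in IL-10 hearts and 139 ± 3.75 CPM in saline hearts (log2 fold change 0.15, SE 0.11, adjusted p = 0.428). Cacnb2, the main cytoplasmic beta subunit of the cardiac channel, averaged 46.0 ± 1.76 CPM in IL-10 hearts and 43.6 ± 1.82 CPM in saline hearts (log2 fold change 0.08, SE 0.10, adjusted p = 0.669).

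The T-type channel genes Cacna1g and Cacna1h, whose channels open at low voltages and are prominent in fetal and pacemaking cells, had log2 fold changes of -0.06 (SE 0.21) and -0.29 (SE 0.29). Cacna1s, the L-type pore of skeletal muscle, averaged 7.27 ± 1.96 CPM in IL-10 hearts and 4.85 ± 0.858 CPM in saline hearts (log2 fold change 0.59, adjusted p = 0.109), and it passed when IL-10 heart 1 was left out (0.80, adjusted p = 0.0335). Cacna1d, the L-type pore of sinoatrial cells, stood near 1 CPM in both groups, 1.24 ± 0.755 CPM in IL-10 hearts and 1.41 ± 0.114 CPM in saline hearts. Cacna2d2 and Cacng1 did not pass the filter. The remaining tested calcium channel genes (Cacna1a, Cacnb1, Cacnb3, Cacnb4 and Cacng7) had log2 fold changes between -0.56 and 0.09.

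Among the Hcn genes, whose channels open on hyperpolarisation and carry the pacemaker current, Hcn2 (chromosome 10, 79716634 to 79736108) passed the test. It had 21.3, 11.6 and 8.23 CPM in IL-10 hearts, against 6.88, 5.61 and 6.66 CPM in saline hearts. IL-10 heart 1 stood well above the other two, and the groups did not overlap. The log2 fold change was 1.10 (SE 0.26, adjusted p = 0.0109), and without IL-10 heart 1 it was 0.64 with an adjusted p = 0.0665. Hcn4, the main isoform of the sinoatrial node, averaged 4.41 ± 1.08 CPM in IL-10 hearts and 3.38 ± 0.338 CPM in saline hearts (log2 fold change 0.39, adjusted p = 0.34). Of 10 pacemaker and conduction markers, 6 passed the filter and 1 was called higher, Isl1 and Vsnl1 had no count in any heart, and the summed level was 99.5 to 133 CPM in IL-10 hearts and 77.8 to 95.1 CPM in saline hearts. Their part in the Hcn2 result was not tested.

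Voltage-gated potassium channel alpha subunits were the class with the most tested genes. Of 16 tested, 5 were called higher (31.2%) and 1 lower (6.25%), beside 6.86% and 6.70% of all tested genes. Kcna5 (chromosome 6, 126532551 to 126535412), an ultrarapid delayed rectifier of heart muscle, had 22.8, 21.1 and 25.2 CPM in IL-10 hearts, against 13.4, 14.1 and 12.5 CPM in saline hearts. The spread within each group was small beside the gap between them, and the log2 fold change was 0.79 (SE 0.13, adjusted p = 0.00104). Kcnh2 (chromosome 5, 24319589 to 24351604), which encodes the rapid delayed rectifier mutated in a form of long QT syndrome in humans, had 36.6, 32.0 and 28.6 CPM in IL-10 hearts, against 19.6, 25.3 and 18.4 CPM in saline hearts. All 3 IL-10 hearts were above all 3 saline hearts (log2 fold change 0.62, SE 0.14, adjusted p = 0.00802). Kcng2 encodes a silent subunit, which forms no channel alone and alters the channels it joins. It had 79.3, 65.4 and 57.3 CPM in IL-10 hearts, against 42.3, 45.9 and 53.2 CPM in saline hearts, with IL-10 heart 3 only a little above saline heart 3. Its log2 fold change was 0.51 (SE 0.13, adjusted p = 0.0154), and the adjusted p was 0.0823 without saline heart 1, 0.0775 without IL-10 heart 1, 0.0524 without IL-10 heart 2 and 0.0568 under total counts only. The exons of Kcng2 overlap an antisense transcript, and the library kit does not mark strand, so reads of the pair cannot be told apart.

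A pair of low-level genes of the same class had larger fold changes. Kcna7, a muscle channel of the Shaker family, had 5.04, 3.31 and 4.22 CPM in IL-10 hearts, against 1.83, 1.68 and 0.961 CPM in saline hearts (log2 fold change 1.50, SE 0.31, adjusted p = 0.00482). Kcnc1, a fast delayed rectifier best known from neurons, had 1.86, 1.10 and 1.48 CPM in IL-10 hearts, against 0.366, 0.292 and 0.192 CPM in saline hearts. The saline values of Kcnc1 rest on 5, 4 and 3 counts, so its log2 fold change of 2.37 (SE 0.48, adjusted p = 0.0039) is imprecise although the groups were well apart. Because Kcnc1 passed the filter only through IL-10 hearts, a difference in this direction was set in advance. Of 10 neuronal markers, 4 passed the filter, none was called higher and 1 was called lower, Th and Syt1 had no count in any heart, and their summed level was 22.2 to 26.9 CPM in IL-10 hearts and 28.7 to 42.2 CPM in saline hearts. Kcnd1, a transient outward alpha subunit, was lower, with 0.621, 0.588 and 0.773 CPM in IL-10 hearts, against 1.76, 1.68 and 2.11 CPM in saline hearts (log2 fold change -1.47, SE 0.38, adjusted p = 0.0167). The Kcnd1 values did not overlap, but 4 of the 6 fits that left out a heart gave an adjusted p between 0.0532 and 0.0802.

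Kcnd2 and Kcnd3, the alpha subunits of the fast transient outward current in mouse ventricle, did not pass. Kcnd2 averaged 9.94 ± 1.52 CPM in IL-10 hearts and 7.62 ± 0.801 CPM in saline hearts (log2 fold change 0.39, SE 0.17, adjusted p = 0.156), without overlap. Kcnd3 averaged 9.25 ± 1.48 CPM in IL-10 hearts and 7.23 ± 1.68 CPM in saline hearts (log2 fold change 0.36, SE 0.20, adjusted p = 0.255). Kcna4, the alpha subunit of the slow transient outward current, averaged 1.42 ± 0.232 CPM in IL-10 hearts and 2.07 ± 0.228 CPM in saline hearts (log2 fold change -0.55, SE 0.33, adjusted p = 0.295). Kcnq1, the slow delayed rectifier, averaged 26.6 ± 1.58 CPM in IL-10 hearts and 23.4 ± 0.99 CPM in saline hearts (log2 fold change 0.19, adjusted p = 0.311). Its exons overlap those of the antisense transcript Kcnq1ot1, whose reads cannot be separated from its own here.

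Of the auxiliary potassium channel subunits, 1 of 7 tested was called (14.3%), beside 13.6% of all tested genes called in either direction. A share so near that of all genes is no result about the class. The called gene was Kcnip2 (chromosome 19, 45791839 to 45816061), the calcium-binding protein without which mouse ventricle loses its fast transient outward current. It had 72.9, 46.1 and 52.5 CPM in IL-10 hearts, against 35.7, 37.8 and 31.1 CPM in saline hearts. The lowest IL-10 heart was above the highest saline heart, and the log2 fold change was 0.71 (SE 0.15, adjusted p = 0.00481), or 0.51 to 0.85 when single hearts were left out. Kcne4, an inhibitory partner of Kcnq1, averaged 6.89 ± 2.74 CPM in IL-10 hearts and 4.24 ± 0.586 CPM in saline hearts (log2 fold change 0.70, adjusted p = 0.0863). The groups did not overlap, and IL-10 heart 3, at 10.1 CPM, stood above IL-10 hearts 1 and 2, at 5.32 and 5.29 CPM. Kcne4 passed only with no filter on low counts (adjusted p = 0.0237). Kcne1, the partner that slows Kcnq1 channels, averaged 3.41 ± 0.932 CPM in IL-10 hearts and 3.39 ± 1.03 CPM in saline hearts (log2 fold change 0.02, SE 0.29). Kcne2 had no count in any heart.

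Inward rectifiers were called in both directions, with 3 higher (37.5%) and 2 lower (25.0%) of 8 tested, beside 6.86% and 6.70% of all tested genes. Kcnj11 (chromosome 7, 46093953 to 46100764), the pore of the ATP-sensitive potassium channel of ventricular muscle, had 98.0, 88.9 and 80.5 CPM in IL-10 hearts, against 50.2, 62.1 and 52.9 CPM in saline hearts. All IL-10 hearts were above all saline hearts, and the log2 fold change was 0.69 (SE 0.12, adjusted p = 0.0011). Kcnj8, the pore of the same kind of channel in vascular muscle, averaged 29.9 ± 4.94 CPM in IL-10 hearts and 24.7 ± 1.60 CPM in saline hearts, with overlap (log2 fold change 0.27, adjusted p = 0.189). The sulfonylurea receptor genes Abcc8 and Abcc9, whose products complete these channels, had log2 fold changes of 0.36 (adjusted p = 0.252) and 0.30 (adjusted p = 0.132).

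Kcnj3 and Kcnj5 encode the pair of subunits that form the channel opened by acetylcholine through G proteins, which is prominent in atrium and node. Kcnj3 (chromosome 2, 55435970 to 55598145) had 33.3, 41.0 and 34.7 CPM in IL-10 hearts, against 21.7, 25.1 and 17.5 CPM in saline hearts. The groups were clear of each other (log2 fold change 0.76, SE 0.14, adjusted p = 0.0019), and the Kcnj3 exons overlap an antisense gene. Kcnj5 had 58.8, 59.0 and 45.6 CPM in IL-10 hearts, against 45.0, 41.1 and 38.7 CPM in saline hearts. IL-10 heart 3 barely exceeded saline heart 1, and the log2 fold change of 0.39 (SE 0.12) had an adjusted p = 0.0446. That call ended in 5 of the 6 fits without a heart, with adjusted p from 0.068 to 0.179, and also under total counts only (0.111), upper-quartile scaling (0.0757) and limma-voom (0.051). Of 11 atrial markers, 8 passed the filter, 1 was called higher and 1 lower (Nppa, log2 fold change -1.70). Their sum was 314 to 602 CPM in IL-10 hearts and 923 to 1660 CPM in saline hearts, and it includes Nppa, which overloaded ventricle expresses too. Over the 8 that passed, the median log2 fold change was -0.195. Those that did not pass were Bmp10, with no count in any heart, Sln, with at most 0.147 CPM, and Myl7, with at most 0.281 CPM. Levels of the other tested atrial markers, that called higher among them, are not given singly. The part of atrial tissue in the Kcnj3 and Kcnj5 results was not tested.

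Kcnj2 and Kcnj12 encode the classical inward rectifier that holds the resting potential of ventricular muscle. Kcnj2 had 20.6, 23.3 and 25.7 CPM in IL-10 hearts, against 22.8, 29.0 and 17.6 CPM in saline hearts, with a log2 fold change of 0.00 (SE 0.16). Kcnj12 averaged 17.6 ± 3.24 CPM in IL-10 hearts and 13.9 ± 1.30 CPM in saline hearts (log2 fold change 0.34, SE 0.15, adjusted p = 0.16). The genes called lower were less abundant relatives. Kcnj15, whose exons overlap an opposite-strand gene, had 1.31, 1.10 and 1.34 CPM in IL-10 hearts, against 2.85, 2.92 and 4.29 CPM in saline hearts (log2 fold change -1.42, SE 0.31, adjusted p = 0.00696). Kcnj14 had 2.28, 1.47 and 1.55 CPM in IL-10 hearts, against 3.07, 3.06 and 5.77 CPM in saline hearts (log2 fold change -1.17, SE 0.33, adjusted p = 0.0254). Saline heart 3 was the highest library for both, and without it Kcnj15 had an adjusted p = 0.0522 and Kcnj14 a log2 fold change of -0.78 with an adjusted p = 0.184. The Kcnj14 call also ended without IL-10 heart 2 (adjusted p = 0.11) and without IL-10 heart 3 (adjusted p = 0.068). With saline heart 3 left out, 0 channel genes were called lower, and without IL-10 heart 2 there was 1.

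**Figure D2:**
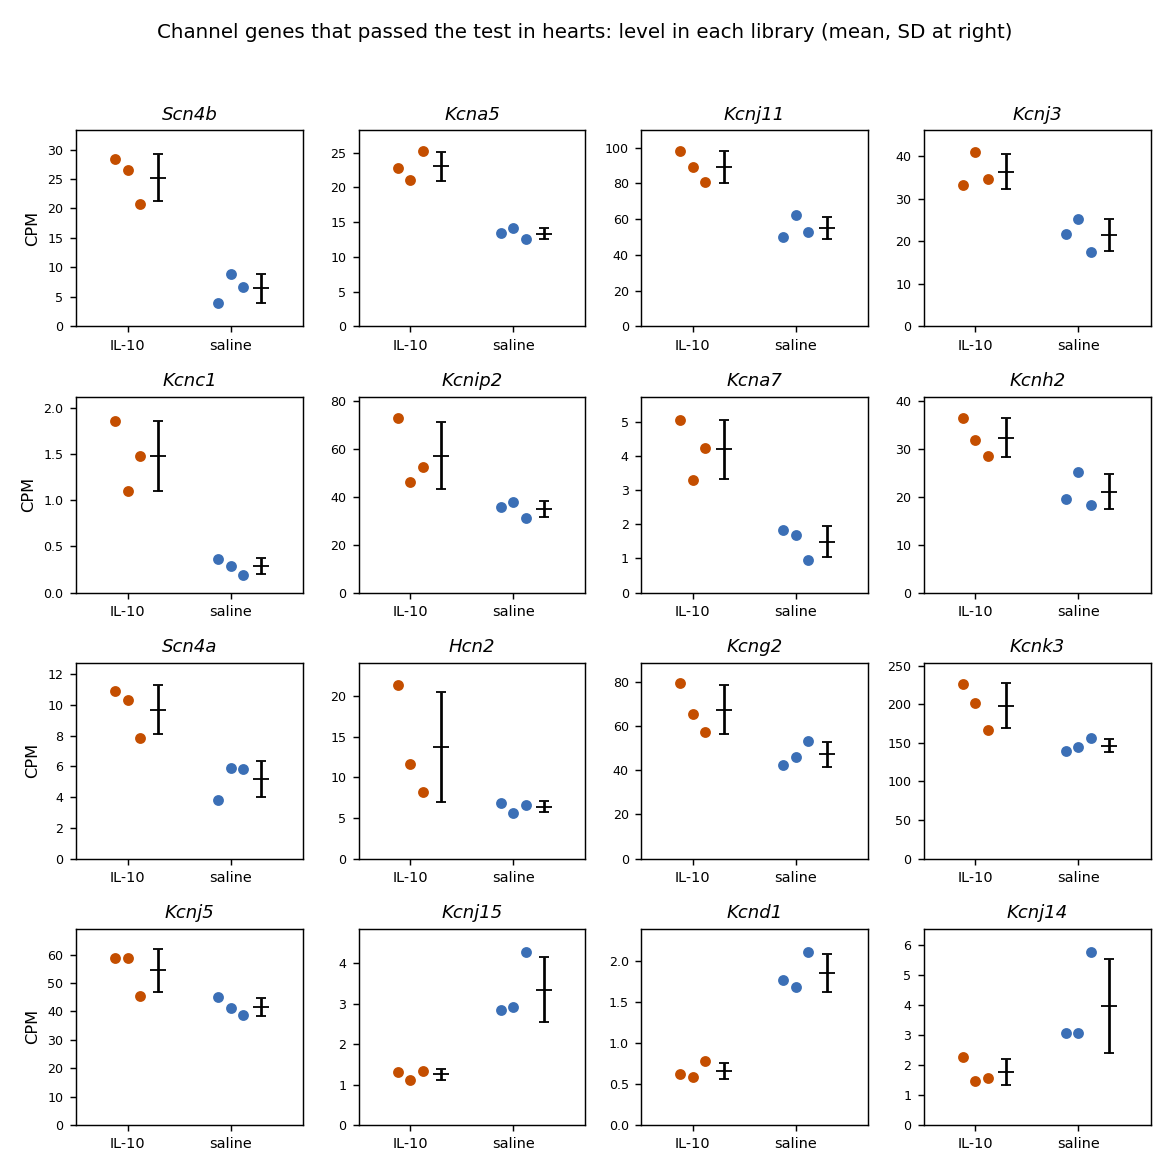
Level in CPM (linear y axes from 0) of the 16 channel genes called in hearts, with 1 point per library, IL-10 left and saline right, and the mean ± SD (n = 3) beside each group. The first 13 panels lie higher in IL-10 hearts and the last 3 (Kcnj15, Kcnd1, Kcnj14) lower; the groups do not overlap in any panel.

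Of the two-pore channels, which carry the background leak of potassium, 1 of 4 tested passed (25.0%), beside 13.6% of all tested genes. With so few genes, 1 call does not set the class apart from that share. Kcnk3 (chromosome 5, 30588170 to 30625271), an acid-sensitive leak channel, had 226, 202 and 167 CPM in IL-10 hearts, against 139, 144 and 156 CPM in saline hearts. IL-10 heart 3 lay closest to the saline hearts, and the log2 fold change was 0.44 (SE 0.12, adjusted p = 0.0267). The Kcnk3 call ended in 4 of the 6 fits without a heart, with adjusted p from 0.0571 to 0.119, and also under total counts only (0.079). An antisense gene overlaps its exons as well. The mechanosensitive leak channel Kcnk2 and the related Kcnk6 had log2 fold changes of 0.00 (SE 0.31) and 0.02 (SE 0.22), and Kcnk1 did not pass the filter.

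The 5 tested calcium- or sodium-activated potassium channel genes gave 0 calls by edgeR, DESeq2 or limma-voom, with 1 (Kcnn2) at an unadjusted p under 0.05. Over all tested genes edgeR called 13.6%. Kcnn2, a small-conductance channel of atrial and nodal cells, averaged 6.75 ± 1.02 CPM in IL-10 hearts and 4.82 ± 0.964 CPM in saline hearts (log2 fold change 0.49, SE 0.21, adjusted p = 0.146). Kcnn3, its close relative, had a log2 fold change of 0.05 (SE 0.26). Kcnma1, the large-conductance channel of smooth muscle, did not pass the filter.

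To set related channel transcripts side by side, 8 ratios were computed per heart as CPM per kb. Some pairs are subunits of the same channel, such as Kcnip2 with Kcnd2 and Kcnd3, and others are alpha subunits of different channels, such as Kcna5 and Kcna4, Kcnj11 and Kcnj8, and Hcn2 and Hcn4. The pairs were chosen after the values of the genes were seen and carry no test. Kcnip2 relative to the sum of Kcnd2 and Kcnd3 was 5.63 ± 0.565 in IL-10 hearts and 4.52 ± 0.353 in saline hearts, without overlap. Kcna5 relative to Kcna4 was 28.1 ± 6.57 in IL-10 hearts and 10.9 ± 0.862 in saline hearts, also without overlap. Hcn2 relative to Hcn4 was 5.74 ± 1.52 in IL-10 hearts and 3.62 ± 0.179 in saline hearts, and IL-10 heart 1 at 7.49 raised that mean. In the other 5 pairs the groups overlapped: Kcnj3 to Kcnj5, Kcnj11 to Kcnj8, Kcne1 to Kcnq1, and Cacnb2 or Cacna2d1 to Cacna1c.

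**Figure D3:**
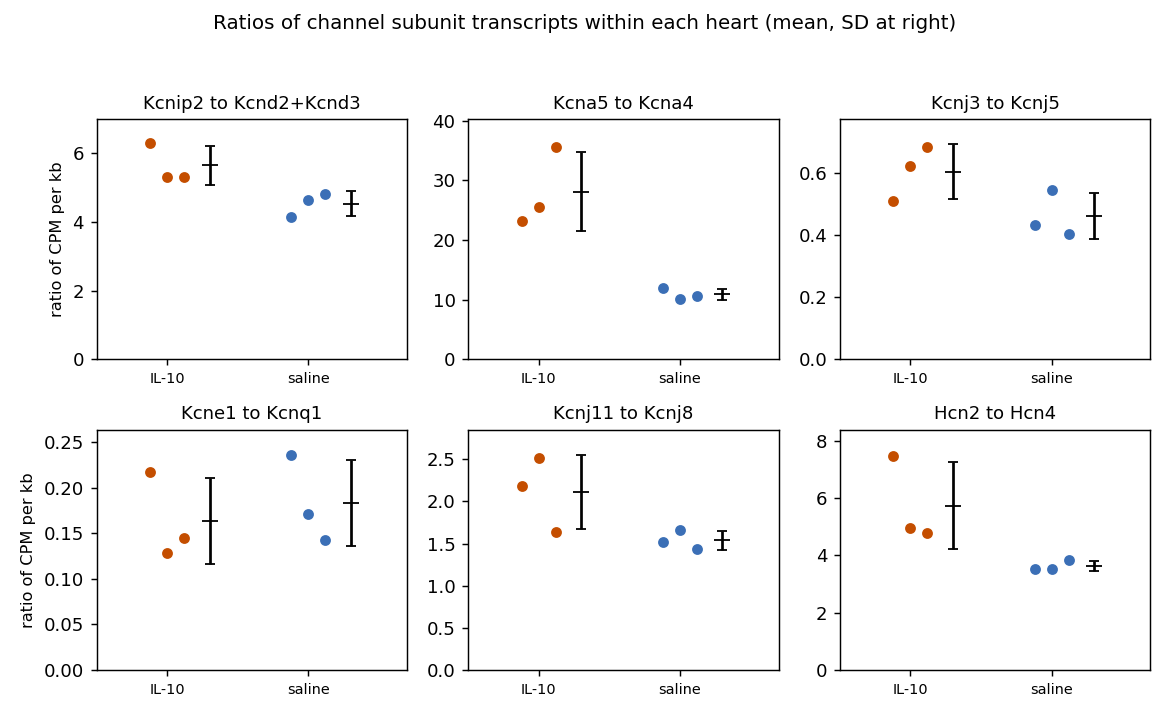
Ratio of paired channel transcripts (CPM per kb over CPM per kb, linear y axes from 0) for 6 of the 8 pairs, with 1 point per heart, IL-10 left and saline right, and the mean ± SD (n = 3). Kcna5 to Kcna4 was 28.1 ± 6.57 in IL-10 hearts and 10.9 ± 0.862 in saline hearts, while Kcnj3 to Kcnj5, Kcnj11 to Kcnj8 and Kcne1 to Kcnq1 overlapped.

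Genes that work beside these channels were read from the same fit, in which 6.86% of all tested genes were higher and 6.70% lower. Of 30 tested calcium handling genes, 3 were higher (10.0%) and 2 lower (6.67%) in IL-10 hearts, with a median log2 fold change of 0.0312. They included Atp2a2, the calcium pump of the sarcoplasmic reticulum, at 0.62 (adjusted p = 0.00976), Jph1, a junctional protein, at 0.86 (adjusted p = 0.00174), and the sodium-calcium exchanger Slc8a1 at -0.65 (adjusted p = 0.00192). Of 32 tested channel partners, 5 were higher (15.6%) and 2 lower (6.25%; median log2 fold change 0.115), among them the phosphatase Ptpn3 at 0.63 (adjusted p = 0.00488) and Tmem38a, a counter-ion channel of the sarcoplasmic reticulum, at 0.50 (adjusted p = 0.0168). Of 15 tested gap junction and intercalated disc genes, 2 were higher (13.3%) and 1 lower (6.67%; median log2 fold change -0.0795), with Xirp2 at -1.21 (adjusted p = 0.000749).

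Of 36 tested transcription factors known to act on cardiac channel genes, 10 were higher (27.8%) and 1 lower (2.78%), beside 6.86% and 6.70% of all tested genes, with a median log2 fold change of 0.265. The list was chosen with earlier results of these hearts known, so its share carries no test. Klf15, a Krüppel-like factor known to drive Kcnip2 in mouse heart, averaged 33.5 ± 4.37 CPM in IL-10 hearts and 15.6 ± 1.22 CPM in saline hearts (log2 fold change 1.10, SE 0.13, adjusted p = 7.68e-05). Nr3c2, the mineralocorticoid receptor, averaged 11.6 ± 1.71 CPM in IL-10 hearts and 4.46 ± 0.512 CPM in saline hearts (log2 fold change 1.38, SE 0.19, adjusted p = 0.000216). Tef, a clock output factor, and Foxo3 each had a log2 fold change of 0.62. Of 23 tested channels and pumps of other families, 0 were called by edgeR, DESeq2 or limma-voom, 4 had an unadjusted p under 0.05, and the median was -0.00158; the smallest p was that of the stretch-activated channel Piezo1, at -0.39 (adjusted p = 0.0651).

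Markers of the other cells of a heart were as follows. Of 10 smooth muscle and pericyte markers tested, 4 were lower (sum 952 to 1120 CPM in IL-10 hearts and 904 to 1110 CPM in saline hearts), and of 9 endothelial markers 2 were lower (956 to 1030 CPM in IL-10 hearts and 975 to 1150 CPM in saline hearts). Of 9 fibroblast markers, 3 were higher and 3 lower (3300 to 4060 CPM in IL-10 hearts and 3830 to 4240 CPM in saline hearts), and of 12 macrophage markers 1 was lower (888 to 1020 CPM in IL-10 hearts and 643 to 1080 CPM in saline hearts). Schwann cell sums were 16.0 to 17.6 CPM in IL-10 hearts and 17.0 to 18.1 CPM in saline hearts. Mesothelial sums were 10.0 to 12.8 CPM in IL-10 hearts and 10.3 to 21.4 CPM in saline hearts, and mast cell sums 7.49 to 12.5 CPM in IL-10 hearts and 6.71 to 11.2 CPM in saline hearts. Eosinophil and neutrophil sums were 3.59 to 5.07 CPM in IL-10 hearts and 2.31 to 3.94 CPM in saline hearts, and lymphocyte sums 2.60 to 3.87 CPM in IL-10 hearts and 1.46 to 2.24 CPM in saline hearts. Of the Schwann, mesothelial, mast cell and granulocyte markers tested, edgeR, DESeq2 and limma-voom called 0, and 1 mast cell marker had an unadjusted p under 0.05. The part of cell composition in the channel results was not tested.

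The repertoire of channel transcripts differed between hearts and macrophages. These tables differ in tissue, culture and drug and were scaled separately, so levels are set side by side without a test. In hearts Kcnk3 led at 43.3 CPM per kb. Also among the 10 highest were Kcnj11 at 19.6, Kcng2 at 19.1, Kcnip2 at 13.2, Cacna2d1 at 11.8, Kcnj8 at 10.7, Kcnj5 at 10.3 and Kcna5 at 6.35 CPM per kb. The top 10 held 67.0% of the summed 252 CPM per kb. Of these, Kcnj11 and Kcng2 differed by less than the spread between hearts. In macrophages Kcnab2 led at 21.7 CPM per kb. Also among the 10 highest were Kcnk6 at 15.4, Kcnk13 at 13.6, Kcnj2 at 8.21, Cacnb3 at 5.19, Kcnn4 at 4.69, Kcnab1 at 3.15, Cacna1d at 3.10 and Cacna2d1 at 1.29 CPM per kb. The 10 highest held 91.4% of 94.8 CPM per kb.

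At least 1 CPM was reached in every heart by 48 of the 138 genes and in every macrophage library by 16. Of these, 10 reached it in all 10 libraries, and 33 reached it in every heart and in no macrophage library. Kcnab1 was alone in reaching it in every macrophage library and in no heart. No count was seen in any of the 10 libraries for 15 genes. The test covered 29 genes in both tables, 34 in hearts only and 8 in macrophages only, so 67 were tested in neither.

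**Figure D4:**
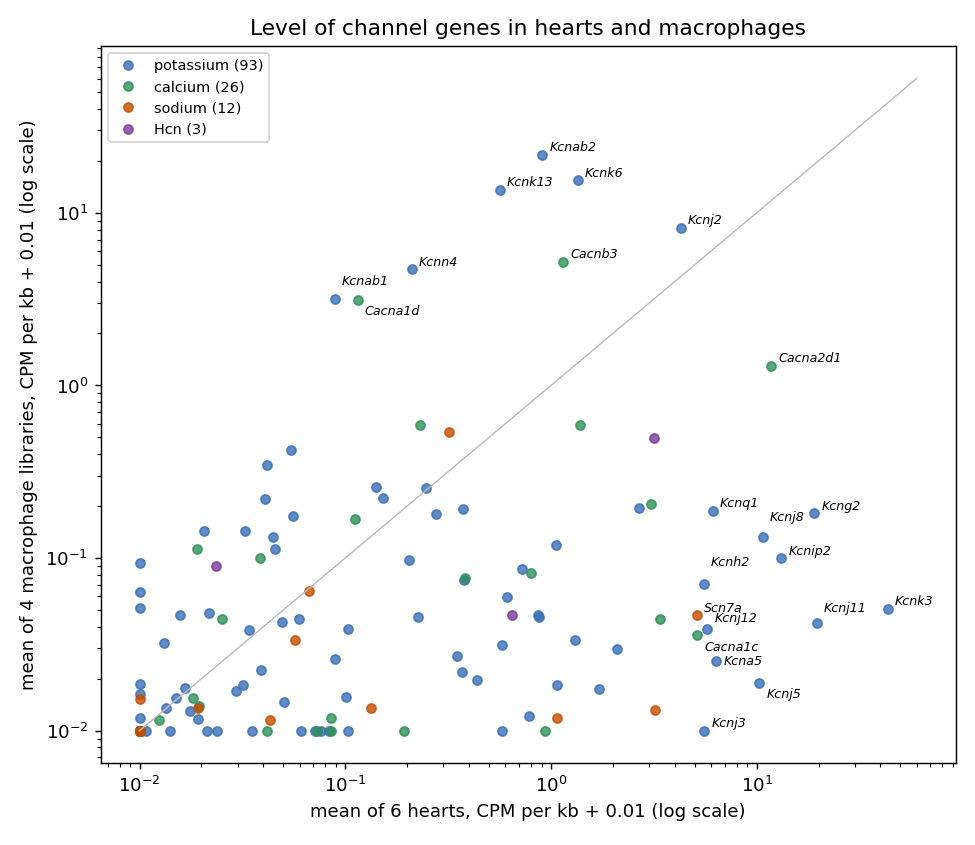
Mean level of 134 of the 138 channel genes in the 6 hearts (x axis) and the 4 macrophage libraries (y axis), as CPM per kb plus 0.01 on log axes, coloured by ion, with the line of equal level in grey. Kcnab2, Kcnk6 and Kcnk13 lie far above the line, and Kcnk3 and Kcnj11 far below it (43.3 and 19.6 CPM per kb in hearts).

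In Cd163-/- macrophages, 5 channel genes were higher and 3 lower than in wild-type macrophages, of 37 tested. The higher ones were 13.5% of the 37, beside 13.1% of all 13861 tested genes, and the lower ones 8.11%, beside 13.3% of all. A share near that of all genes is no result about the channel family. At an unadjusted p under 0.05 there were 11 of the 37, beside 41.2% of all tested genes. In 10 of the 37 both Cd163-/- libraries lay above both wild-type libraries, beside 35.3% of all tested genes, and in 6 below, beside 34.1%; together these were 43.2% of the 37, beside 69.4% of all. Kcnf1 passed the filter on low counts only through wild-type macrophages, and Cacng7 and Scn2a only through Cd163-/- macrophages. As in hearts, such genes had to differ, so these shares describe the genes that passed and not the whole family. The median log2 fold change was 0.161, and 0.0124 over all tested genes. Upper-quartile scaling and total counts only shifted the median of all genes by 0.113 and 0.176 and made 62.2% and 68.6% of all calls higher ones, in place of 49.6%, and both gave 5 channel genes higher and 3 lower. None of the 8 called genes was among the 16 called in hearts. Of those 16, only Kcng2, Hcn2, Kcnj15 and Kcnd1 were tested in macrophages, and of the 8, Kcnf1 and Kcnq5 were not tested in hearts. The filters thus left few genes that could be called in both, and a difference between the 2 comparisons was not tested. Kcnab1 alone stayed past the threshold whichever library was left out.

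Kcnab1 (chromosome 3, 65109384 to 65378223), a cytoplasmic beta subunit that speeds inactivation of Kcna channels, had 51.4 and 38.4 CPM in Cd163-/- macrophages, against 11.2 and 7.37 CPM in wild-type macrophages. Both Cd163-/- libraries were far above both wild-type libraries, and the log2 fold change was 2.27 (SE 0.25, adjusted p = 0.0033), or 2.00 to 2.60 when single libraries were left out. The exons of Kcnab1 overlap an opposite-strand gene that cannot be told apart here. Markers of other cells also differed. Of 8 mesothelial markers tested, 5 were higher (sum 342 to 450 CPM in Cd163-/- and 108 to 174 CPM in wild-type macrophages). Of 7 fibroblast markers 5 were higher and 1 lower (2620 to 3640 CPM in Cd163-/- and 1280 to 1740 CPM in wild-type macrophages), and of 7 smooth muscle markers 3 were higher (428 to 727 CPM in Cd163-/- and 191 to 251 CPM in wild-type macrophages). Of 12 macrophage markers 2 were higher and 3 lower (24800 to 25700 CPM in Cd163-/- and 27400 to 31900 CPM in wild-type macrophages). Their part in the Kcnab1 result, and in the other channel genes of this comparison, was not tested.

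Kcnk13 (chromosome 12, 99964499 to 100062682), a two-pore leak channel of microglia and other macrophages, had 49.8 and 55.6 CPM in Cd163-/- macrophages, against 36.1 and 28.0 CPM in wild-type macrophages (log2 fold change 0.72, SE 0.16, adjusted p = 0.0243). Cacna2d1 had 20.7 and 17.9 CPM in Cd163-/- macrophages, against 12.4 and 13.0 CPM in wild-type macrophages (log2 fold change 0.60, SE 0.15, adjusted p = 0.0349). Neither pair of groups overlapped. Scn2a, a neuronal sodium channel, had 1.05 and 1.00 CPM in Cd163-/- macrophages, against 0.356 and 0.381 CPM in wild-type macrophages (log2 fold change 1.46, SE 0.41, adjusted p = 0.0484). Cacng7, a gamma subunit, had 0.947 and 0.667 CPM in Cd163-/- macrophages, against 0.119 and 0.191 CPM in wild-type macrophages, which rest on 2 and 3 counts (log2 fold change 2.35, SE 0.56, adjusted p = 0.0294). The calls of Cacna2d1, Scn2a and Cacng7 ended whichever library was left out. DESeq2 gave an adjusted p = 0.119 for Cacng7 and 0.237 for Scn2a, and the Scn2a call also ended under limma-voom (0.0603) and with no filter on low counts (0.0632). That of Kcnk13 ended in 3 of the 4 such fits, with adjusted p from 0.0516 to 0.135.

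Kcnj2, the inward rectifier that sets the resting potential of macrophages as well, had 26.6 and 36.5 CPM in Cd163-/- macrophages, against 61.0 and 54.7 CPM in wild-type macrophages. The groups did not overlap (log2 fold change -0.87, SE 0.18, adjusted p = 0.0185), and without Cd163-/- library 1 the value was -0.66 with an adjusted p = 0.103. Kcnq5, a slowly activating M-type channel whose exons overlap an opposite-strand gene, had 0.847 and 1.56 CPM in Cd163-/- macrophages, against 3.45 and 6.93 CPM in wild-type macrophages. Its log2 fold change was -2.11 (SE 0.48, adjusted p = 0.0252), and 3 of the 4 fits without a library gave an adjusted p from 0.0573 to 0.151. Kcnf1, a silent subunit, had 0 counts in both Cd163-/- libraries, against 0.654 and 0.953 CPM in wild-type macrophages, 26 counts in all. With 3 counts over the Cd163-/- group as the floor, it was at least 10.1-fold lower (adjusted p = 0.0126), and the adjusted p was 0.081 without Cd163-/- library 1 and 0.0603 without library 2.

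**Figure D5:**
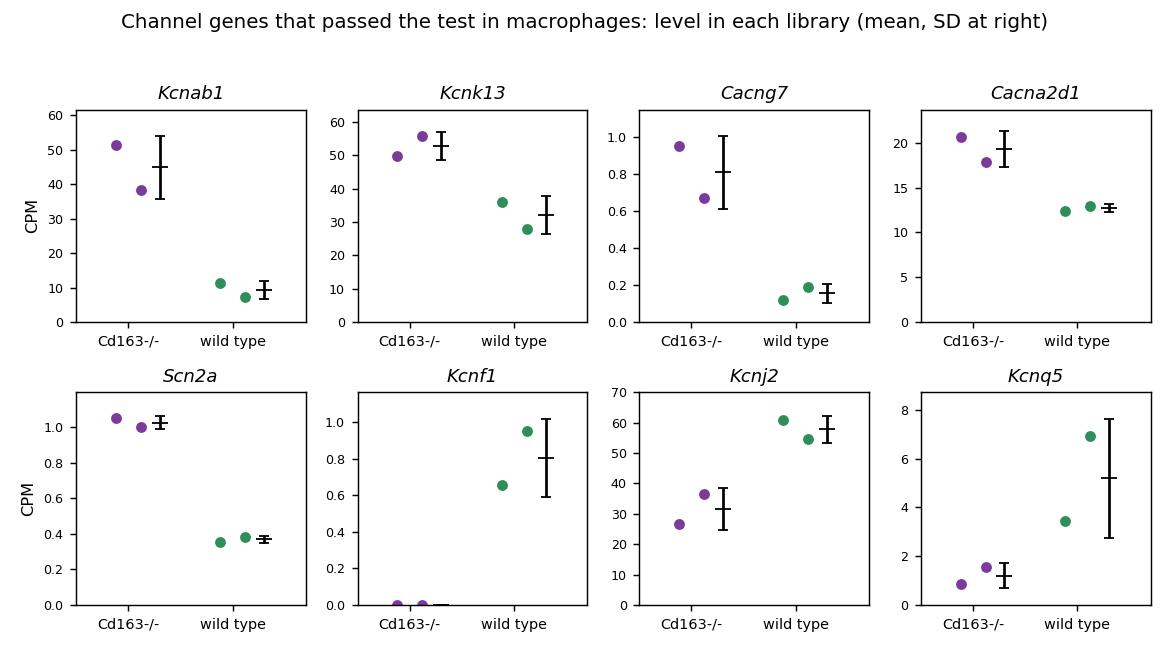
Level in CPM (linear y axes from 0) of the 8 channel genes called in macrophages, with 1 point per library, Cd163-/- left and wild type right, and the mean ± SD (n = 2) beside each group. Kcnab1 stands at 51.4 and 38.4 CPM in Cd163-/- against 11.2 and 7.37 CPM in wild-type libraries, and Kcnf1 at 0 in both Cd163-/- libraries.

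Kcnab2 and Kcnk6, which had the highest levels per kb in macrophages, did not pass. Kcnab2, a beta subunit with an aldo-keto reductase fold, had 118 and 124 CPM in Cd163-/- macrophages, against 121 and 121 CPM in wild-type macrophages, with a log2 fold change of -0.00 (SE 0.11), or 0.17 with libraries scaled by total counts only. Kcnk6 had 67.0 and 74.9 CPM in Cd163-/- macrophages, against 68.0 and 46.6 CPM in wild-type macrophages (log2 fold change 0.31, adjusted p = 0.283), and wild-type library 2 stood apart. Without wild-type library 1 the Kcnk6 value was 0.60 with an adjusted p = 0.0269.

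Kcnn4, the calcium-activated channel of activated immune cells, averaged 21.0 ± 7.29 CPM in Cd163-/- and 26.9 ± 2.58 CPM in wild-type macrophages (SD, n = 2 each; adjusted p = 0.33). Kcna3, its voltage-gated counterpart in lymphocytes and macrophages, stood at 0.660 ± 0.088 CPM in Cd163-/- and 0.621 ± 0.290 CPM in wild-type macrophages. Cacna1d averaged 35.1 ± 6.49 CPM in Cd163-/- and 43.3 ± 8.01 CPM in wild-type macrophages (log2 fold change -0.30, adjusted p = 0.281), and its exons overlap the gene Chdh on the opposite strand. The calcium channel beta subunit genes Cacnb3 and Cacnb4 had log2 fold changes of 0.16 (SE 0.18) and -0.41 (SE 0.45). Hcn2 had a log2 fold change of 0.42 (SE 0.37) and Kcnq1 of 0.96 (SE 0.58, adjusted p = 0.265). Kcne3 had 7 and 5 counts in Cd163-/- libraries and 0 in both wild-type libraries and was not tested; Kcnmb1, Kcnma1, Kcnk12 and Kcnh2 had 9 or fewer counts in any library and were not tested either.

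The lists of associated genes were read in macrophages too, where 13.1% of all tested genes were higher and 13.3% lower. Calcium handling genes gave 5 higher and 5 lower of 26 tested (19.2% each), led by Gem, a small GTPase that restrains calcium channels, at -3.68 (adjusted p = 0.00107) and the calcium release channel Itpr1 at 1.09 (adjusted p = 0.00423). Channel partners gave 7 higher (35.0%) and 2 lower (10.0%) of 20, and gap junction and intercalated disc genes 5 higher (55.6%) and 0 lower of 9. Transcription factors gave 12 higher (44.4%) and 4 lower (14.8%) of 27, and other channels and pumps 5 higher (23.8%) and 2 lower (9.52%) of 21. The mesothelial, fibroblast and smooth muscle marker sums given beside Kcnab1 were higher in the same Cd163-/- libraries, and their part in these counts was not tested. The leading gene of the transcription factors was Nr3c1, the glucocorticoid receptor, at -1.33 (adjusted p = 0.00353), and that of the other channels was the endolysosomal channel Tpcn1 at 1.82 (adjusted p = 0.00393).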

How the data were processed

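Libraries were made from poly(A) RNA with the NEBNext Ultra RNA kit, which does not mark strand, per the labels' protocols; these name livers as the source of RNA, against the heart and macrophage labels. The submitters' processing notes name HISAT2 2.2.1, an aligner, and featureCounts, a read counter (its version is not given in the sources used here), and list both GRCm39 and mm10 as build. The authors deposited whole-number counts per gene in 2 tables, one for hearts and one for macrophages; 0 columns were left without a sample. Gene names, exon lengths and coordinates were taken from GENCODE M21 on GRCm38, which named 52081 of 55357 identifiers.

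The 2 tables were fitted separately (R 4.3.3). In each, edgeR 4.0.16 was used to filter low genes (filterByExpr, minimum count 10, minimum total 15), to scale libraries by TMM and to compare the groups with its quasi-likelihood test. Benjamini-Hochberg adjustment ran over every tested gene of a table, with 0.05 as the threshold for a call. CPM use the TMM-scaled library sizes, errors are SD over libraries or the standard error (SE) of the log2 fold change, and floors cover counting error only. Mitochondrially encoded genes held 33.7% to 39.4% of heart counts and 2.43% to 3.12% of macrophage counts.

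The channel genes, the related lists, the markers and the genes named in the text were chosen with earlier results of these data known. Named are all called channel genes, fixed lists of channel genes of heart and macrophage, the 10 with the highest level per kb in each table, and up to 4 genes of each related list by smallest p; a few of those so chosen are not reported here. Each result was recomputed with upper-quartile scaling, with DESeq2 size factors, with total counts only, without a filter, with at least 1 CPM required throughout a group, by limma-voom (limma 3.58.1), by the Wald test of DESeq2 1.42.0, without mitochondrially encoded genes, with the replicate number as a block, and without each library in turn. On simulated data with 200 changed genes, 76.5% of the 2-fold and 99% of the 4-fold changes were found in the heart design, with 11 false calls among 13718 genes. In the macrophage design 50.5% and 87% were found, with 16 false calls among 13861 genes. The counts were drawn from the fitted model with its own dispersions. In the data more genes were called, 1860 in hearts and 3663 in macrophages, so these rates need not hold there. No 2 libraries of a group agreed within sampling noise.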

Additional observations from a re-analysis of the deposited data

How the results depend on the processing

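In hearts, the number of channel genes called higher ran from 10 to 16 over all alternatives, against 13, and from 10 to 13 when single hearts were left out; the number called lower was 3 or 4, and 0 to 3 without single hearts. In macrophages, 5 were called higher and 3 lower; no filter on low counts gave 9 and 8, the DESeq2 Wald test gave 3 higher, and leaving out single libraries gave 1 to 4 higher and 0 to 3 lower. A lone library left in a macrophage group borrows its spread from the other group by assumption. Same-numbered hearts did not deviate together (correlations of -0.179, 0.0421 and 0.0034), so the replicate numbers are not taken as pairs; with the replicate block the hearts gave 11 higher and 3 lower and the macrophages 3 higher and 3 lower. Same-numbered macrophage libraries had a correlation of -0.113, and the crossed pairing, added after the data were seen, gave 5 higher and 4 lower.

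Some values near 0 changed sign, and the cause was not tested. Under upper-quartile scaling and total counts only, Kcne1 was -0.03 and -0.03, Kcnj2 -0.05 and -0.06 and Kcnn3 -0.00 and -0.01 in hearts, and Kcnab2 was 0.11 and 0.17 in macrophages, with 0.01 under the filter of 1 CPM. Leaving out single hearts took Kcne1 from -0.22 to 0.28, Kcnj2 from -0.16 to 0.20, Kcnn3 from -0.07 to 0.23, Cacna1d from -0.49 to 0.24 and Cacna1g from -0.30 to 0.12. Leaving out single macrophage libraries took Kcna3 from -0.33 to 0.65, Kcnab2 from -0.05 to 0.03, Cacnb3 from -0.07 to 0.35 and Cacnb4 from -0.78 to 0.09. None of the 16 heart calls or 8 macrophage calls changed sign under any alternative run. With 2 libraries a group, the macrophage comparison is the less sensitive: genes of a few counts, such as Kcnf1 and Cacng7, are given with their counts for that reason.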

Other observations

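Summed by class, all IL-10 hearts lay above all saline hearts in 7 of 13 subunit classes: sodium alpha and beta subunits, Hcn channels, and the voltage-gated, auxiliary, inward rectifier and two-pore potassium classes. The inward rectifiers stood at 267, 257 and 239 CPM in IL-10 hearts and 185, 204 and 175 CPM in saline hearts, and the voltage-gated potassium alpha subunits at 253, 219 and 218 CPM in IL-10 hearts and 161, 174 and 165 CPM in saline hearts. The groups overlapped in the other 6 classes, the 4 calcium channel classes among them; the calcium channel beta subunits stood at 59.7, 56.6 and 54.6 CPM in IL-10 hearts and 54.4, 56.6 and 56.8 CPM in saline hearts. Of all single tested genes, 15.7% lay above in this way. Single genes carried most of some sums: Kcnk3 held 93.9% of the two-pore sum, Kcnip2 69.6% of the auxiliary sum and Hcn2 67.0% of the Hcn sum. The leading inward rectifier, Kcnj11, held 32.6%, and the leading voltage-gated potassium alpha subunit, Kcng2, 28.9%. These genes were themselves called higher, so a class sum does not show a rise across its class. The sums carry no test.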
